A study of Mus musculus with 5 samples.

Results

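In IL-2-activated CD8+ T cells (CD8-TC), 963 of 18992 H3K4me1-marked regions (5.07%) lay both away from genes' start sites and far from Runx3. A region was taken when its centre was over 5 kb from every annotated transcript start and over 100 kb from the centre of every Runx3-bound region on that chromosome. They were 7.72% of the 12467 distal H3K4me1-marked regions (95% Wilson interval 7.27 to 8.21) and covered 1544 kb, which was 4.35% of all marked sequence. The other distal regions were of 2 kinds. In 3977 of them a Runx3-bound region shared at least 1 base, and 7527 held none but lay within 100 kb of one. They are called here Runx3-holding and neighbouring regions.

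The series comprised 5 ChIP-seq libraries from splenic CD8-TC of ICR mice, an outbred strain. Every library came from cells activated through the T cell receptor with anti-CD3e and anti-CD28 for 2 days and then grown with IL-2 at 100 u/ml for 4 days. Anti-Runx3, a polyclonal antibody made in the authors' laboratory, was used for 2 libraries, a monoclonal anti-H3K4me1 for 1 library, and non-immune serum (NIS), the control, for 2 libraries. No gene was altered in any group, and the age and number of mice were not given in the sources used here. The cells were selected on anti-CD8 beads, which also bind other spleen cells that carry CD8, and by the study's methods nearly all cells were CD3+ CD8-TC at the end of culture. The study's methods give read totals per antibody. In these cells Runx3 had fewer reads than H3K4me1, and far fewer than Runx3 had in resting CD8-TC. Far from Runx3 thus means that no Runx3-bound region was called within 100 kb, and weaker binding could have been missed. The reads behind each region are unknown, because each deposited list holds positions only, with no height, score or p-value, and was called on joined reads. No value below therefore has a replicate error. The intervals are 95% Wilson intervals for shares, order-statistic intervals for medians and exact Poisson intervals for densities, and they cover counting among regions only.

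Monomethylation of lysine 4 on histone H3 (H3K4me1) is laid down on nucleosomes beside active and poised enhancers, the stretches of DNA from which transcription factors act on promoters that can lie far away. Runx3 belongs to the RUNX family, whose members share a DNA-binding domain and read the same short motif, and in cytotoxic T cells it acts largely at enhancers together with ETS-family factors. Enhancers marked by H3K4me1 and lacking Runx3 can be held by other factors, among them the other RUNX proteins of the cell. No other factor was measured here, so which proteins occupied the remote regions was not tested.

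The sequence at the centre of 3 of the 6 widest remote regions is shown first, because these are among the broadest marked blocks. Each line gives 200 bases of the plus strand of mm9, with RUNX words (TGTGGT or TGTGGC or TGCGGT or TGCGGC) and ETS words (AGGAAG or AGGAAA or CGGAAG or CGGAAA) in capitals on whichever strand they were found, so that ACCACA is TGTGGT on the other strand.
Taf4a, chr2:179700634-179700833: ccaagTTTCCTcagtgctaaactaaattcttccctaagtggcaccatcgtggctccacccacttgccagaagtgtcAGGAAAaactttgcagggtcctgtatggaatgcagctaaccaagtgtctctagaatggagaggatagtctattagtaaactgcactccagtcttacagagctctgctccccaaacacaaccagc
Ppp1r13b, chr12:113150756-113150955: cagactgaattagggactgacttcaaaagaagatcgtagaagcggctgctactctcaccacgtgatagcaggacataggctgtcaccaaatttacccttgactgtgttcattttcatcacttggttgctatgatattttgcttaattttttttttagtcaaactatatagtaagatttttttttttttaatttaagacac
Hmox1, chr8:77607078-77607277: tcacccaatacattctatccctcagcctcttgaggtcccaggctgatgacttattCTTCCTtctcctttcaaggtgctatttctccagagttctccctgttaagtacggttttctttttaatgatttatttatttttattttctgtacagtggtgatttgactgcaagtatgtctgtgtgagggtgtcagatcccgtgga
These 3 windows lay outside annotated exons and held no RUNX word and 3 ETS words in all. They do not stand for all the widest regions, since a wider one in Pfdn1, of 5119 bp, held 2 RUNX words in its central 200 bases.

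The remote regions with most RUNX words at the centre are shown next, chosen after their counts were seen, because the motif is that of a factor called nowhere within 100 kb. With at least 95% of their 32-base words found once in the genome, the widest 3 of those with 3 RUNX words in the central 200 bases were these.
Slc22a12, chr19:6687052-6687251: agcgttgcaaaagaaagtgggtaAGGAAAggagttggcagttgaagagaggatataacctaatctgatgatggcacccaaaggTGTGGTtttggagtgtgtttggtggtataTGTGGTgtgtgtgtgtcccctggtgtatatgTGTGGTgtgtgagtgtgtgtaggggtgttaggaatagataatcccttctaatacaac
Tusc3, chr8:40083525-40083724: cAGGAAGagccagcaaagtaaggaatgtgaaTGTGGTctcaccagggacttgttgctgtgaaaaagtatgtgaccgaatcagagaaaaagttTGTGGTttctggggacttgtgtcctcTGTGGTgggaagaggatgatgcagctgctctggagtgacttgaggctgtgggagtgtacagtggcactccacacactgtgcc
Rnf111, chr9:70333028-70333227: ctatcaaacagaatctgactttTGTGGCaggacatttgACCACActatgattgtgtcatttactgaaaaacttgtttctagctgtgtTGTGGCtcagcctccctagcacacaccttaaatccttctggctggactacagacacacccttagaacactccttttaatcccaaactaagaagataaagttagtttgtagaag
The first lay between genes, 144 kb upstream of Slc22a12, a urate transporter gene, and 234.9 kb from Runx3, and its RUNX words sat in a TG-rich run. The second was an intron of Tusc3, which encodes a subunit of the oligosaccharyltransferase complex, 1513 kb from Runx3 and 1578 kb from the next H3K4me1-marked region. The third was an intron of Rnf111, a ubiquitin ligase gene, 194 kb from Runx3. Across all 963 remote regions the central window held no RUNX word in 555, 1 in 305, 2 in 92 and 3 in 11.

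Short unmarked gaps between neighbouring H3K4me1-marked regions can hold the factor-bound core of an enhancer, since the mark sits on the flanking nucleosomes. Of the gaps of 100 to 300 bases between remote regions, 4 of those with most motif words are shown.
Secisbp2l, chr2:125617841-125618001: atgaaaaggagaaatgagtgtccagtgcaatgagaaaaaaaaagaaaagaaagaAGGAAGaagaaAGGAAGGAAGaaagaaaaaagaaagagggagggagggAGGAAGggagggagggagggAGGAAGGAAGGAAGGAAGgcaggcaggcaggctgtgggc
Traf5, chr1:193901218-193901432: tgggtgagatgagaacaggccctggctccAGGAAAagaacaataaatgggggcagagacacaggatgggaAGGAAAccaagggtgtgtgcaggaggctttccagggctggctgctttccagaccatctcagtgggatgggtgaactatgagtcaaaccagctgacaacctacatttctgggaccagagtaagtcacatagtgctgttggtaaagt
Thnsl1, chr2:21145759-21146047: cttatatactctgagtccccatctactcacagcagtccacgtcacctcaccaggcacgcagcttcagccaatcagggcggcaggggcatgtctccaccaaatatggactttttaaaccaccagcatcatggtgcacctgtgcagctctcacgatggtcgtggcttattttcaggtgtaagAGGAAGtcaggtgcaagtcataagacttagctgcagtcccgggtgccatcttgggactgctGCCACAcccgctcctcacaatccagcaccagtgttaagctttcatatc
Rreb1, chr13:37893679-37893910: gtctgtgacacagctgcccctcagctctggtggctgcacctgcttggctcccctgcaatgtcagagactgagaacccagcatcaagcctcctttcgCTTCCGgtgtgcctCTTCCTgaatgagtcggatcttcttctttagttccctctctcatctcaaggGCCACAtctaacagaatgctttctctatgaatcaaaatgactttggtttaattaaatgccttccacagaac
The Secisbp2l gap, with 8 ETS words, is a simple purine repeat. The Rreb1 gap held 1 RUNX and 2 ETS words within the first part of the Rreb1 gene, which encodes a zinc-finger factor responsive to Ras signalling. The Traf5 gap lay beside the gene of a signalling adaptor of TNF-family receptors.

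The remote regions were spread thinly over a large territory. Sequence over 5 kb from every transcript start came to 2135 Mb, and 73.0% of it lay over 100 kb from Runx3. That share of the sequence held 7.72% of the distal H3K4me1-marked regions, or 0.618 per Mb (0.579 to 0.658), against 19.96 per Mb (19.6 to 20.3) within 100 kb of Runx3. The density fell with every step of distance. It was 75.7 per Mb within 10 kb of a Runx3 centre, 12.3 between 10 and 50 kb, 4.70 between 50 and 100 kb, 2.18 between 100 and 200 kb, 0.707 between 200 and 500 kb, 0.159 between 500 and 1000 kb and 0.0718 beyond 1000 kb, and no interval overlapped the next. All 3977 Runx3-holding regions, which lay at most 6.42 kb from a Runx3 centre, fall in the first step, beside 3216 regions without Runx3. They are also counted in the densities for sequence within 100 kb. Protein-coding genes thinned out along the same steps, from 26.7 to 2.85 per Mb, and the part of gene density in the fall was not tested. Where 10 to 19 protein-coding genes started within 500 kb, distal sequence over 100 kb from Runx3 held 1.64 H3K4me1-marked regions per Mb (1.46 to 1.83) and sequence within 100 kb held 20.3 (19.7 to 21.0), and where fewer than 5 genes started the values were 0.192 (0.165 to 0.222) and 16.5 (15.8 to 17.3).

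**Figure D1:**
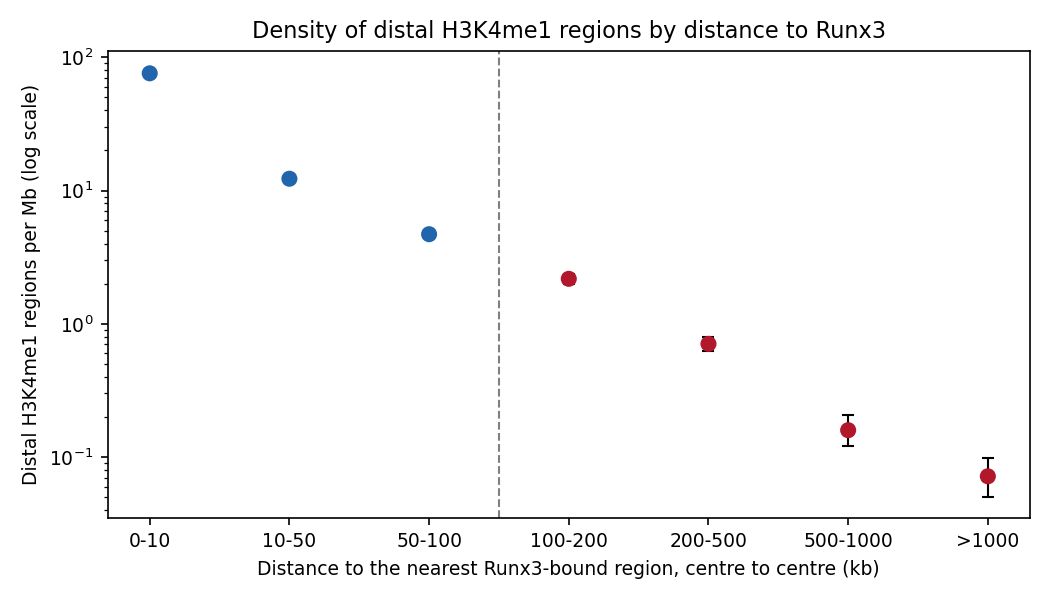
Distal H3K4me1-marked regions per Mb of distal sequence (log scale) against the distance to the nearest Runx3-bound region, with 95% Poisson intervals, often smaller than the points. Red points, right of the dashed line at 100 kb, are the remote regions, and the density falls from 75.7 per Mb within 10 kb to 0.0718 beyond 1000 kb. The first point includes the 3977 Runx3-holding regions.

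Most remote regions were not extremely far. Of the 963, 570 (59.2%) lay 100 to 200 kb from Runx3, 299 between 200 and 500 kb, 57 between 500 and 1000 kb and 37 (3.84%) beyond 1000 kb, and the median was 175 kb (166 to 183). The region just inside the limit, at 100.1 kb, was chr3:54395878-54397346, nearest to Fam48a, and the next, at 100.1 kb, was chr2:102751904-102754632, nearest to Cd44, the gene of a hyaluronan receptor that marks activated and memory T cells. Just outside, at 99.99 kb, was chr1:38614137-38615078, nearest to Aff3, followed at 99.9 kb by a region nearest to Parp11 and at 99.8 kb by one nearest to Klf7. Values on both sides of the limit were thus close together. For the distance to transcript starts, the region just inside was 5.01 kb from a start and had Tmtc1 as its nearest protein-coding gene, and those just outside were 4.99 kb from a start and nearest to Bnip3 and Il21. The farthest from Runx3 was chrX:121267149-121267636, 5817 kb away. It was also the narrowest, at 488 bp, and only 39.6% of its 32-base words were found once in the genome. Whether the reads placed there came from other copies was not tested. The farthest on an autosome were a pair on chromosome 3 near Car2, a carbonic anhydrase gene, at 4243 and 4199.6 kb.

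By chromosome, the remote share of distal regions ran from 4.63% on chromosome 7 (3.33 to 6.40) to 12.3% on chromosome 18 (9.34 to 16.1) among the autosomes. Chromosomes 13 and 19 followed, at 11.9% and 11.5%. On the X chromosome 7 of only 40 distal regions were remote (17.5%, 8.75 to 31.9), a wide interval that reaches down into the autosomal range. The 7 included an intron of Arhgef6, a Rac and Cdc42 exchange factor gene, and a pair 1 kb apart in Sh3kbp1, the gene of the adaptor CIN85.

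**Figure D2:**
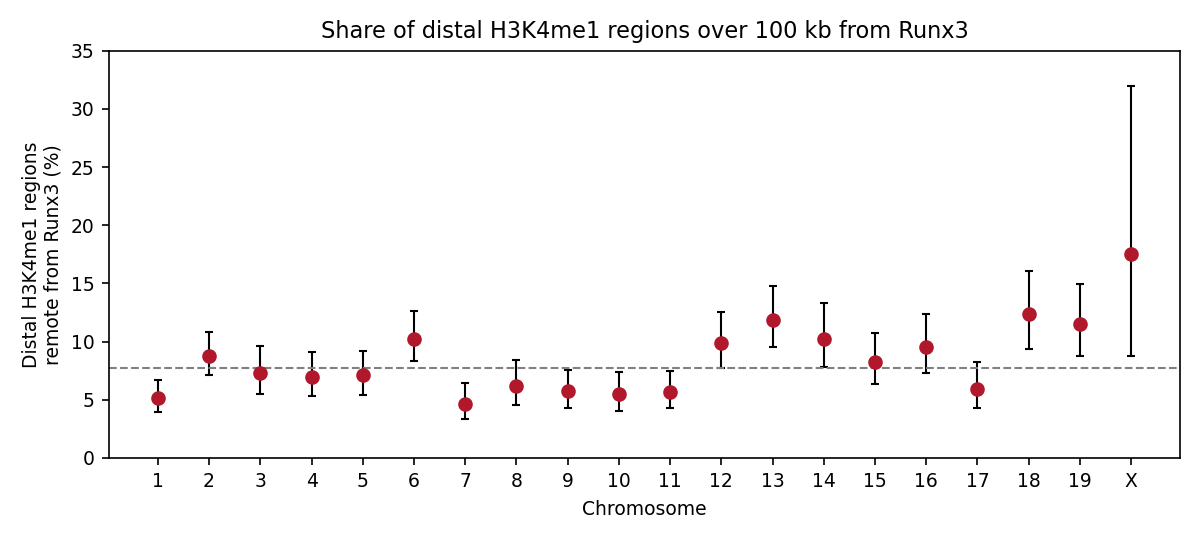
Share of distal H3K4me1-marked regions that were remote from Runx3 on each chromosome (percent), with 95% Wilson intervals; the dashed line is the share over all chromosomes, 7.72%. The intervals of chromosomes 6, 12, 13, 14, 18, 19 and X lie above it and those of 1, 7, 9, 10 and 11 below it.

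Remote regions tended to be narrower than both other kinds. Their median width was 1458 bp (1415 to 1505), against 1545 bp (1525 to 1564) for neighbouring and 1931 bp (1890 to 1976) for Runx3-holding regions. Widths ran from 488 to 7460 bp, and 3.95% exceeded 3 kb, against 8.13% and 20.2%. A wider region has more bases to share with a Runx3-bound one, so the rule itself favours width in the Runx3-holding kind. How much of the difference came from this was not tested. The mark's strength cannot be compared, because no heights were given.

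The 10 widest remote regions included blocks in and beside genes with a range of functions. Among them was a region of 5119 bp in Pfdn1, a prefoldin chaperone subunit gene, on chromosome 18, and one of 4915 bp in Taf4a, the gene of a subunit of the basal transcription factor TFIID. Between genes, a 4331 bp region lay 40.0 kb upstream of Ppp1r13b, which encodes a p53-binding protein, and a 4298 bp region lay 10.3 kb upstream of Hmox1, the gene of heme oxygenase-1. The Hmox1 region, chr8:77605029-77609326, was 2339.8 kb from Runx3, the farthest of the 10. Another 4 were 3999 to 4264 bp wide and lay in Sarnp (near Gdf11, a TGF-beta family ligand), Dtx4 (near Mpeg1, the gene of the macrophage pore-forming protein perforin-2), Camk1d, a calcium/calmodulin-dependent kinase, and Rnf130, a ubiquitin ligase. Whole, these 10 regions held 2 to 16 RUNX words and 7 to 24 ETS words each, and all had at least 95.1% of their 32-base words found once in the genome.

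In position relative to genes the remote regions resembled the others in part. By their centres 54.3% lay in a protein-coding gene (51.2 to 57.4), against 56.4% of neighbouring (55.3 to 57.6) and 50.3% of Runx3-holding regions (48.7 to 51.8). Counting any shared base, 43.8% were intergenic, 44.4% touched introns only, 8.62% touched a coding exon and 2.49% a UTR. The median distance to the nearest protein-coding start was longer, 35.4 kb (31.7 to 39.5) against 24.95 kb (24.2 to 25.8) and 27.1 kb (25.9 to 28.4), and 20.7% lay over 100 kb from one, against 10.8% and 13.2%. A median of 8 protein-coding genes started within 500 kb (8 to 9), against 10 for both other kinds. Genes longer than 300 kb held 10.4% of remote regions (8.61 to 12.47), against 6.72% and 6.71%. Base composition differed little. The median GC content was 45.7%, 45.96% and 46.1% for the 3 kinds, and the median observed-to-expected CpG ratio was 0.183, 0.187 and 0.194. No remote region exceeded a ratio of 0.6, the usual mark of a CpG island, which allows a share of up to 0.397% by the Wilson interval. The median share of 32-base words found once in the genome was 99.7%, against 99.0% and 98.5%.

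Remote regions were widely spaced. A remote region was a median of 23.2 kb (17.9 to 30.1) from the next H3K4me1-marked region, edge to edge, whereas neighbouring and Runx3-holding regions were 2.20 kb (2.04 to 2.34) and 1.06 kb (0.886 to 1.29) from theirs. Only 18.2% of remote regions (15.9 to 20.7) had another within 1 kb, against 38.3% and 49.4%. At the other end, 51.9% stood over 20 kb from any other, against 15.0% and 17.6%, and 257 of them (26.7%) had no other H3K4me1-marked region centred within 100 kb, against 1.79% and 5.38%. Because H3K4me1-marked regions as a whole became rarer away from Runx3, spacing and distance from Runx3 cannot be told apart as features of these regions.

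**Figure D3:**
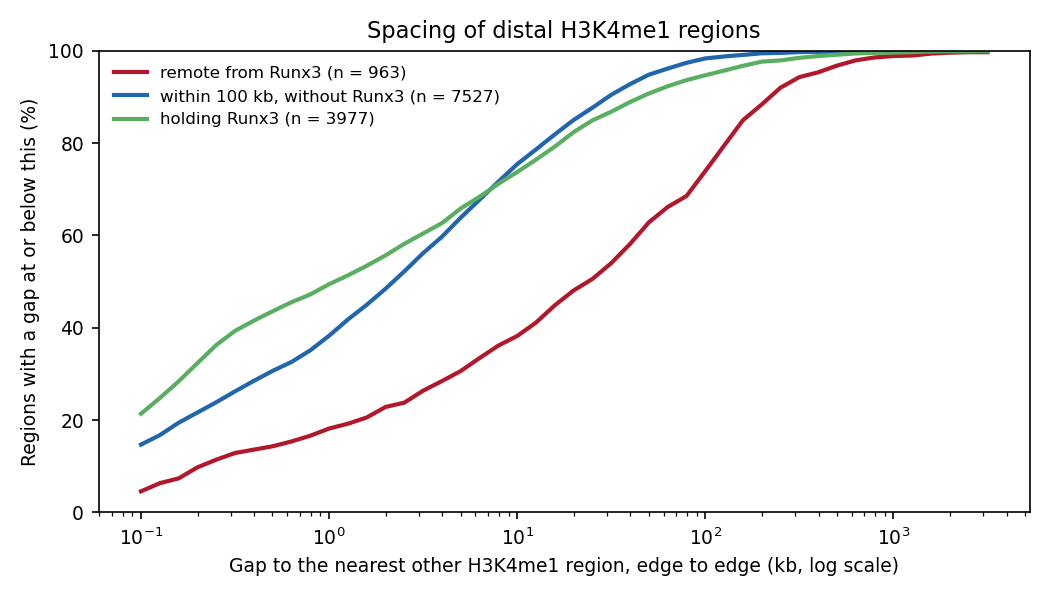
Cumulative share of distal H3K4me1-marked regions (percent) by the gap to the nearest other H3K4me1-marked region (kb, log scale), for regions remote from Runx3, within 100 kb without it, and holding it. At 1 kb the curves stand at 18.2%, 38.3% and 49.4%, and the remote curve lies lowest until all approach 100%.

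Some remote regions did form groups. When regions with near edges were joined, the 963 fell into 768 groups, and the largest gap inside a group was 12.21 kb. Most of these (629) were a lone region, 99 held 2, and the 40 larger groups took in 136 regions. The 3 groups of 5 were on chromosomes 12, 19 and 16. The first, chr12:113134538-113153021, spanned 18.5 kb between 24.8 and 40.0 kb upstream of Ppp1r13b and held 10601 bp of marked sequence, its widest region being the one whose centre is printed above. The second took up 11.2 kb of an intron of Sh3pxd2a, which encodes the podosome scaffold Tks5, with gaps of 0.104 to 0.141 kb between 4 of its regions. The third had regions of 769 to 1133 bp between genes, 78.7 to 93.4 kb from the nearest protein-coding start, that of Cpn2, a carboxypeptidase N subunit gene. Groups of 4 stood in Taf4a and upstream of Ttll11, a tubulin-modifying enzyme gene. Of the 5 groups, only that in Sh3pxd2a had a RUNX word at the centre of most of its regions (3 of 5), and that in Taf4a had none in 4.

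Seen from Runx3, the remote regions lay in 533 stretches between neighbouring Runx3-bound regions, with a median length of 647 kb and a range of 204 to 16102 kb. Of these, 311 held 1 remote region, 122 held 2 and 100 held 3 or more, and 28 with 5 or more held 175 regions. Among the 5 with most, 2 held 11 each. In the first, 490.2 kb of chromosome 13 (Runx3 centres at 37651664 and 38141902), all 11 regions had Rreb1 as their nearest protein-coding gene. Of these, 5 lay upstream of the gene, 26.6 to 105 kb from the nearest Rreb1 start, and 6 within its body, which holds no other H3K4me1-marked region. Their widths were 889 to 2165 bp, and the nearest was 113 kb from Runx3. In the second, 1661 kb of chromosome 5, 9 of the 11 were nearest to Ubl3, the gene of a membrane-anchored ubiquitin-like protein, 1 was in an intron of Flt3, the receptor tyrosine kinase of blood progenitors and dendritic cells, and 1 in Pan3, a deadenylase subunit gene. The Ubl3 regions ran from 62.7 kb downstream to 162 kb upstream of its start. The third stretch, 866 kb of chromosome 6, held 9 regions, 4 of them 17.2 to 28.9 kb upstream of Bhlhe41, which encodes a repressor of the circadian system, and others by Ifltd1 and Rassf8. The fourth, 3644 kb elsewhere on chromosome 6, held 8 spread over 1888 kb from Chchd3, through Exoc4 (an exocyst subunit gene, 3 regions), to Tmem140 and Stra8, the farthest 1771 kb from Runx3. The fifth, 769 kb of chromosome 11, held 8, all in introns of Msi2.

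**Figure D4:**
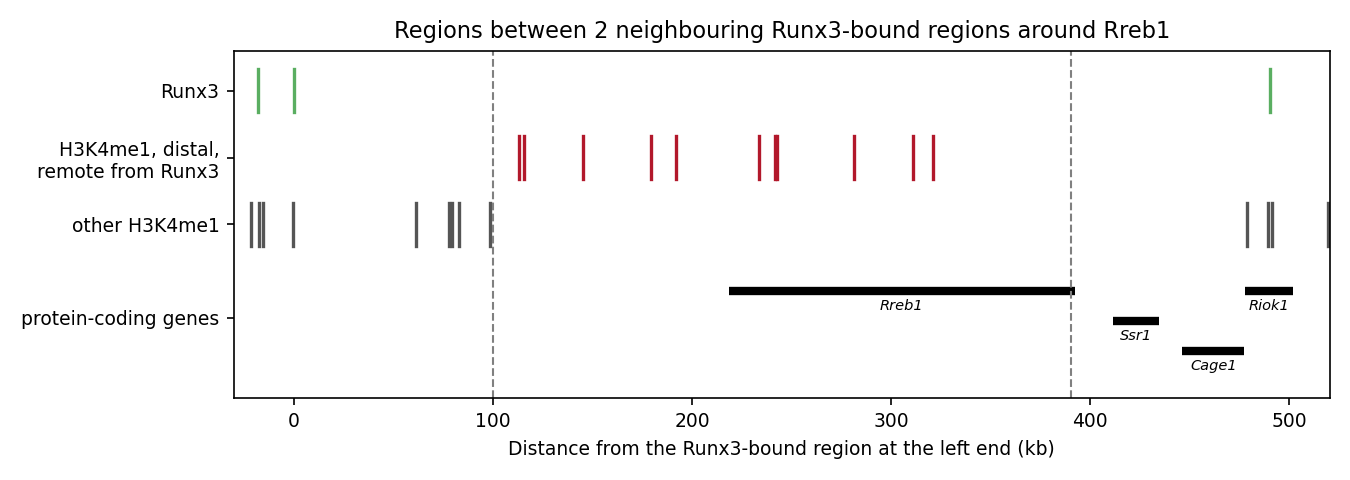
Positions (kb from the left Runx3-bound region) of Runx3-bound regions, remote H3K4me1-marked regions, other H3K4me1-marked regions and protein-coding genes in the stretch around Rreb1. Dashed lines mark 100 kb from either end, and the 11 remote regions lie between 113 and 321 kb, 5 of them upstream of Rreb1 and 6 within it.

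By gene, 368 protein-coding genes had a remote region in their body, 263 of them 1, 69 of them 2 and 36 of them 3 or more. The 10 with most held 4 to 8. Msi2, which encodes the RNA-binding protein Musashi-2, held 8, of 1018 to 2618 bp, 276 to 356 kb from Runx3, and 9 H3K4me1-marked regions in all. Mdfic held 6 of 7, of 1371 to 3006 bp, all at least 1863 kb from Runx3, and Rreb1 held 6. Sh3pxd2a and Ttc3, a ubiquitin ligase gene, held 5 each. Msra (a methionine sulfoxide reductase), Taf4a, St6galnac3 (a sialyltransferase), Snx29 (a sorting nexin) and Ryr2, the gene of the calcium-release channel of heart muscle, held 4 each. Bodies of 8 of these 10 genes held no Runx3 centre, the others being Sh3pxd2a with 1 and Snx29 with 2. A RUNX word was in the central window of 4 of 8 regions in Msi2, 2 of 6 in Mdfic, 3 of 6 in Rreb1, 3 of 4 in St6galnac3 and 0 of 4 in Taf4a. Remoteness from Runx3 did not mean a gene free of it. In 61 of the 368 genes a Runx3 centre lay elsewhere in the body, and 97 remote regions were in such genes, among them Camk1d, Itpr1, Tcf12 and Skap1. The rule keeps Runx3 centres over 100 kb from every remote region, so it bears on this count and on the 8 of 10 above. The share of all protein-coding genes with a Runx3 centre in the body was not counted, so neither count can be called high or low. A few of the 61 are very long models that span several other genes, such as Gm20388 at 4435 kb.

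Few genes of any kind had a remote region, and the rule itself lowers the count where Runx3 is dense. Taking a gene as having a region when it contained one or was the nearest protein-coding start, 737 of 22208 genes (3.32%) had a remote, 3209 (14.4%) a neighbouring and 2438 (11%) a Runx3-holding region. Of 185 listed genes of T cell function and of other cell types, 10 had a remote region (5.41%), 121 a neighbouring and 103 a Runx3-holding one. By list these were 1 of 25 genes of T cell receptor signalling, 2 of 15 naive and memory transcription factors, 4 of 29 effector transcription factors and 1 of 17 genes of survival, metabolism and cell cycle. None of 27 cytotoxic molecules and cytokine receptors or of 15 inhibitory and costimulatory receptors had one, and 18 and 8 of them had a neighbouring region. At a share of 3.32% over all genes, lists this short can hold none without differing from other genes. Of 58 marker genes of other cell types 2 had a remote region (3.45%), 1 of 14 for B cells, 1 of 13 for myeloid and dendritic cells, and 0 of 10 erythroid, 0 of 10 NK and 0 of 11 CD4 T helper genes.

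The named genes are given next with distances from the gene's annotated start, and a region is tied to a gene by its position alone. Where Runx3 lies close to a start, the rule itself places any remote region about 100 kb or more from that start. For Myc, the driver of growth and proliferation, 4 remote regions of 1151 to 2374 bp lay 437 to 451 kb upstream at chr15:61364949-61380292, and 2 of 2114 and 3064 bp lay 391 and 472 kb downstream, while the nearest Runx3 centre to the Myc start was at 1.34 kb. For Runx1, a paralog of Runx3 that reads the same motif, 3 regions of 1220 to 2147 bp lay 327, 365 and 367 kb upstream, with Runx3 0.169 kb from the gene's start. Tox, whose product shapes T cell exhaustion, had 2 of 1417 and 1435 bp at 351 and 373 kb upstream, with Runx3 at 0.941 kb. Prdm1, which encodes the effector regulator Blimp-1, had 1 of 1581 bp at 176 kb upstream, with Runx3 4.13 kb from that same start of the gene model. The nearest protein-coding transcript start of Prdm1 was a different one, 246 kb from the region, and the 4.13 kb does not refer to it. Klf7, a Krüppel-like factor gene, had 2 at 122 and 126 kb downstream, and Tcf12, the gene of the E protein HEB, had 2 in introns, with Runx3 20.8 and 11.3 kb from their starts. Maf, a factor of cytokine gene control, had 1 at 82.6 kb downstream, and for it the nearest Runx3 centre was 193 kb from the start. In Skap1, an adaptor that links the T cell receptor to integrins, 2 regions of 3486 and 1271 bp lay inside the gene, over 117 kb from any Runx3 centre. The start of Skap1 itself was 2.48 kb from a Runx3 centre. The genes listed for other cells were Bank1, a B cell scaffold, with 2 intronic regions of 1426 and 1314 bp, and Flt3, with 1 of 1006 bp, with their starts 230.6 and 241 kb from Runx3.

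RUNX words were more frequent at the centres of remote regions than in genome windows. A RUNX word stood in the central 200 bp of 42.4% of remote regions (39.3 to 45.5), 36.4% of neighbouring regions (35.4 to 37.5) and 39.5% of Runx3-holding regions (38.0 to 41.0). In the Runx3-holding regions this window was mostly not where Runx3 was called, since the Runx3 centre lay a median of 0.519 kb from the region's centre (quartiles 0.216 and 0.888 kb). Over the genome, 24.3% of 51128 windows of the same length placed every 50 kb held one, and 27.6% when weighted to the GC content of the remote windows. In windows 2 kb outside the edges of the remote regions the share was also 27.6%. The lead came mainly from TGTGGT, present in 25.8% of remote, 20.3% of neighbouring and 24.5% of Runx3-holding windows and 13.6% of genome windows, and from TGTGGC (19.7%, 17.1%, 17.98% and 10.5%). TGCGGT and TGCGGC, which contain CpG, were each in fewer than 3% of windows. In the central 500 bp the shares were 71.2% (68.3 to 74.0), 67.4% (66.3 to 68.4) and 71.4% (70.0 to 72.8), so that the lead over neighbouring regions was smaller and the intervals overlapped slightly. A match is a description of the sequence, and whether any protein bound it was not tested.

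The share differed with spacing. Among remote regions within 1 kb of another H3K4me1-marked region, 30.9% had a central RUNX word (24.5 to 38.1, n = 175), rising to 39.2% at 1 to 5 kb (n = 120), 45.2% at 5 to 20 kb (n = 168) and 46.2% beyond 20 kb (41.9 to 50.6, n = 500). Neighbouring regions went from 33.2% to 40.0% (37.2 to 42.9) and Runx3-holding ones from 33.1% to 49.1% (45.5 to 52.8) over the same steps. The centres of closely spaced regions therefore held fewer RUNX words in all 3 kinds, and within 1 kb the 3 shares had overlapping intervals. Beyond 20 kb, remote regions lay between the other kinds, and their interval overlapped both. Among H3K4me1-marked regions without Runx3, the share by distance to Runx3 was 34.4% within 10 kb, 38.1% at 10 to 50 kb, 37.7% at 50 to 100 kb, 41.6% at 100 to 200 kb, 42.1% at 200 to 500 kb and 47.9% (38.1 to 57.9, n = 94) beyond 500 kb, while the median gap to the next region rose from 0.814 to 42.8 kb.

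ETS words, read by the family of Ets1 and its relatives, were in 54.2% of remote central windows (51.0 to 57.3), close to the 53.6% of neighbouring (52.5 to 54.7) and above the 49.0% of Runx3-holding regions (47.4 to 50.5), with 42.1% over the genome windows and 43.5% at the GC content of the remote windows. RUNX and ETS words occurred together in 23.9% of remote windows (21.3 to 26.7), against 20.3% and 20.1%. These joint shares depend on the share of each word alone, and whether the 2 words paired beyond that was not tested. For every other motif searched, the interval of the remote share took in the shares of both other kinds. The remote shares were AP-1 (TGACTCA) 4.57%, TCF/LEF (CTTTGAA or CTTTGAT) 9.35%, GATA factors (AGATAA or AGATAG or TGATAA or TGATAG) 31.2%, E-box (CAGGTG or CAGCTG) 24.3%, NFAT (TGGAAA) 16.5% and KLF (GGGTGTG or GGGCGTG) 6.85%. In the genome windows the same words were in 3.17%, 9.28%, 37.4%, 18.3%, 20.8% and 3.98%, and weighted to the GC content of the remote windows in 3.43%, 7.77%, 31.0%, 23.4%, 19.1% and 5.43%, so that the GATA and E-box shares of remote regions were close to the weighted ones. T-box (AGGTGTGA or AGGTGTTA), STAT (TTCCNGGAA) and IRF words were in 1.87%, 1.14% and 2.08% of remote windows, and CTCF words in 0.312%, 3 regions, against 0.642% of genome windows. All words were searched on both strands, and those of ETS and NFAT share the letters GGAAA.

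The RUNX and ETS words were concentrated at the centre of the remote regions. Within 200 bp of the centre there were 2.59 RUNX words per kb (2.43 to 2.75), and 1.71 (1.64 to 1.77) between 1.2 and 2 kb from it, a ratio of 1.52. The ratio was 1.29 in neighbouring and 1.48 in Runx3-holding regions. For ETS, remote regions had 4.43 per kb (4.22 to 4.65) at the centre and 3.21 (3.12 to 3.30) away from it, a ratio of 1.38, against 1.23 and 1.09. E-box words had ratios of 1.11, 1.13 and 1.13. A count of every word of 6 bases, both strands together, put words of both families among the first. Of 1420 words with at least 50 matches in the central windows of remote regions, the highest ratio of centre to windows 2 kb outside the edges was that of ACTTCC (1.82), which contains the ETS core. CCACAA (1.77), GGTGAC (1.77) and ACCACA (1.72) followed, ACCACA being TGTGGT on the other strand and CCACAA overlapping it by 5 bases. CAGCTG, one of the E-box words, ranked 6 (1.61), against 66 (1.19) in neighbouring and 55 (1.21) in Runx3-holding regions. These ratios count every match, and 1 remote region, in Ryr2, held 10 E-box words of either kind in its central window. By share of windows, an E-box word was in 24.3% of remote, 25.4% of neighbouring and 26.4% of Runx3-holding regions. The median word had a ratio of 1.02. In Runx3-holding regions ACCACA ranked first among the same words (1.75) and ACTTCC ranked 4 (1.58), whereas in neighbouring regions ACTTCC ranked 2 (1.51) and ACCACA ranked 21 (1.27).

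**Figure D5:**
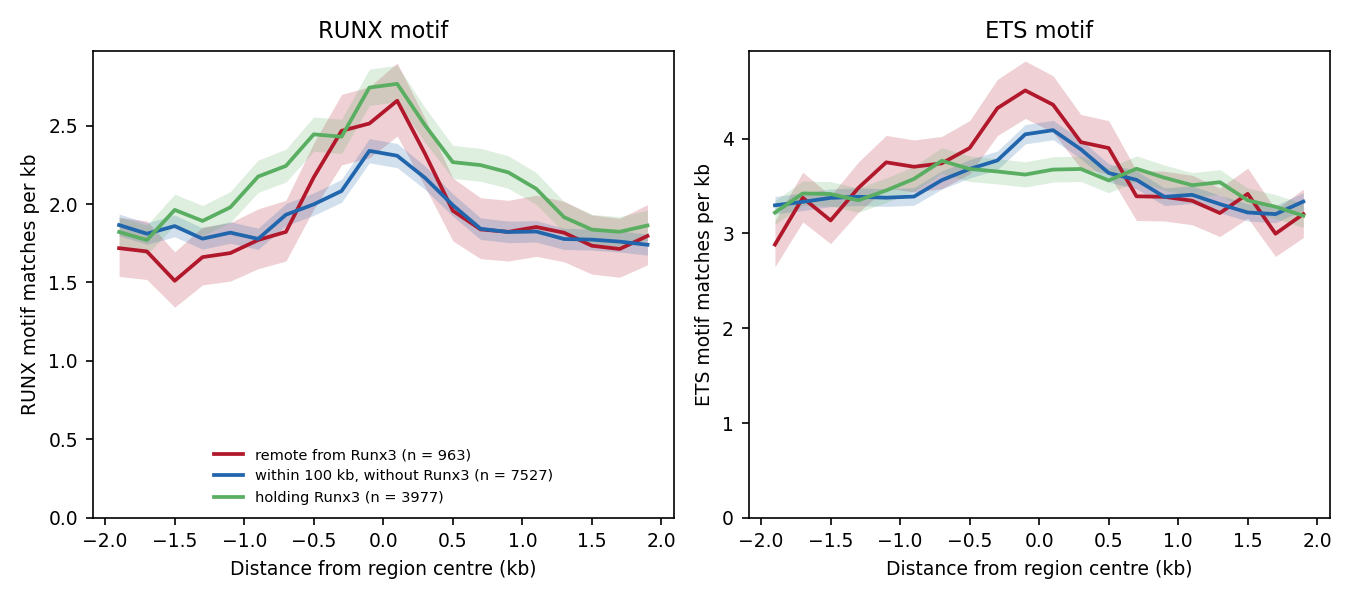
RUNX and ETS words per kb in 200 bp steps around the centres of distal H3K4me1-marked regions remote from Runx3, within 100 kb without it, and holding it, with 95% Poisson bands. Remote regions rise towards the centre for both motifs, to 2.59 RUNX and 4.43 ETS words per kb within 200 bp, and their bands overlap those of Runx3-holding regions for RUNX near the centre and lie above them for ETS.

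The gaps between closely spaced remote regions held RUNX words less often than the centres of remote regions as a whole. Of gaps of 100 to 1000 bp between distal regions, 64 separated a pair of remote regions, and the 200 bp around their middle held a RUNX word in 23.4% (14.7 to 35.1), close to the 25.8% (23.4 to 28.4) of 1177 other gaps without Runx3 and to the 24.3% of genome windows. In the 513 gaps that held a Runx3-bound region the share was 56.1% (51.8 to 60.4). The RUNX interval for gaps between remote regions stopped short of this share and of the 42.4% of all remote central windows. It took in the 27.6% of GC-weighted genome windows and the 30.9% of remote regions within 1 kb of another. The 64 gaps therefore cannot tell a small rise in RUNX words from none. For ETS the shares in the 3 kinds of gap were 48.4% (36.6 to 60.4), 43.6% and 62.2%. The ETS interval for gaps between remote regions took in the second value and stopped short of the third. It also took in the 42.1% of genome windows and the 54.2% of remote central windows. The 64 gaps therefore cannot tell whether ETS words rise there.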

How the data were processed

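ChIP-seq libraries of IL-2-activated CD8-TC (2 Runx3, 1 H3K4me1 and 2 NIS) were sequenced by the authors as short single reads, which they aligned to mm9 with ELAND and kept where unique. They joined the reads of each antibody and called regions with MACS against NIS. The labels speak of replicates for both antibodies, while 1 H3K4me1 library was given. The deposited lists hold 1 position range per region (and a name for Runx3), on chromosomes 1 to 19 and X. No other values, such as a score or count, were in the deposited lists, so the reads behind each region are unknown, no threshold stricter than the authors' could be set, and the replicates could not be compared. Sequence repeated exactly over the length of a read cannot be covered by unique reads.

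Starts were read as counted from 0 and are printed from 1. Genes and 95414 transcript starts came from GENCODE vM1 and bases from NCBIM37, the same build as mm9. Distances to Runx3 were taken between centres and gaps between edges. Motif words were searched on both strands in the central 200 bp. Uniqueness was the share of 32-base words found once in the assembled chromosomes. Python 3.11.15, NumPy 2.4.6, pandas 2.3.3 and SciPy 1.17.1 were used, and the interval and motif functions were tested on simulated data (0 of 3840 cases differed from direct counting). No test was run, since no sample-level value exists. The members and gene lists were chosen with earlier results of these data known. Named were the 10 widest regions (2 of them are not reported here), the 10 genes with most, the 5 Runx3-free stretches with most, the 5 largest groups, every listed gene with a region and the regions nearest each limit.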

Additional observations from a re-analysis of the deposited data

How the results depend on the processing

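No paired analysis was possible because the lists hold no values per sample. Of 152 values under alternative settings, 121 stayed within the interval of the reported value (counts within 1.5 times) and 31 moved. With Runx3 over 50 kb or over 200 kb away, 1951 or 393 regions qualified, with 21.1% having another within 1 kb in the first case and, in the second, a median width of 1522 bp, 7 genes within 500 kb and a median GC content of 45.2%. With centres over 20 kb from every start, 511 qualified, with a median of 65.3 kb to a protein-coding start and 7 genes within 500 kb, 44.2% in protein-coding genes and 14.5% with another within 1 kb. Merging regions closer than 1 kb gave a median width of 1548 bp and 0% with another within 1 kb, and a minimum width of 1000 bp gave 1551 bp. In the central 500 bp, RUNX words were in 71.2% and ETS words in 87.7%. A gap of at most 500 bp or 5 kb gave 14.3% or 30.6% in place of 18.2%, and 368 genes held a region in the gene body alone. Over whole regions, RUNX words numbered 2.27 per kb (2.71 in the central 200 bp). Of settings chosen after seeing the data, RUNX shares were 46.2% for regions over 20 kb from the next and 30.9% for those within 1 kb, with ETS at 50.9%, and 27.6% (RUNX) and 42.7% (ETS) in windows 2 kb outside the edges. The causes of these shifts were not tested. A stricter peak threshold could not be run without scores. The reads behind each region are unknown, and whether Runx3 lay near a remote region below the authors' threshold was not tested.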
